A study of Homo sapiens with 6 samples.

Results

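The Sm ring is the protein collar that encircles most spliceosomal small nuclear RNAs. Peaks were examined in the genes of its subunits and in both annotated pseudogene copies of SNRPD2. The 10 genes were taken from RefSeq by name: SNRPD2, SNRPB, SNRPD1, SNRPD3, SNRPE, SNRPF, SNRPG and SNRPN, with the copies SNRPD2P1 and SNRPD2P2, of 59679 genes on the nuclear chromosomes. Every peak whose summit lay between the first and last base of one of them was counted. This gave 34 peaks, 6 of 30111 in replicate 1, 16 of 160931 in replicate 2 and 12 of 65097 in replicate 3.

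RNA immunoprecipitation followed by sequencing (RIP-seq) had been applied to HEK293T, an established human embryonic kidney cell line. The immunoprecipitated protein is not named in the labels. It is taken to be SmD2, the product of SNRPD2. The labels give 3 samples with the genotype SNRPD2OE, taken as SNRPD2 overexpression, and 3 control samples (genotype Ctrl). Each overexpression sample had 1 peak list, and the controls were not analysed here. The labels name no construct, clone, antibody or added agent, and do not say whether the replicates were separate cultures, so the spread between them may be technical. Because every list came from cells overexpressing SNRPD2, the amount of SNRPD2 RNA in the cells and its recovery by the immunoprecipitation cannot be told apart.

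In the cytoplasm, Sm proteins assemble as sub-complexes (SmD1 with SmD2, SmD3 with SmB, and SmE, SmF and SmG together) that the SMN complex closes around a uridine-rich site of an snRNA. The finished particle then enters the nucleus and takes part in pre-mRNA splicing. SmN, encoded by SNRPN, is a close relative of SmB made mainly in brain. The ring acts as a protein on snRNA, so the messenger RNAs of its subunits are not its textbook substrates.

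The lists differed in depth and in shape. Listed peaks reached down to an unadjusted p of 0.01. Of the peaks in replicates 1, 2 and 3, 4.81%, 3.62% and 1.86% passed a q-value of 0.05 as deposited. For each peak, the reads at its summit and the caller's background there, also in reads, were recovered from 2 of its deposited values, the fold and the −log10 p. The highest number of reads at any summit was 78, 80 and 78, and the median was 4, 1 and 1. In each list the highest number equals 2 times the smallest peak width, and 2, 6 and 4 peaks tie at it, so it may be a ceiling of the caller's pileup, which was not tested. A summit at this number may hold more reads than stated. Replicate 3 stood apart, with 49284 peaks wider than 1000 bp against 2 and 0, so some of its results are also given without wide peaks.

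SNRPD2, which encodes SmD2, had the same pattern in every list: 2 peaks at the same 2 sites, each at the highest number of reads of its list, where values may be capped and cannot be ordered. The gene lies on chromosome 19 from 45687454 to 45692316 (GRCh38, 4863 bp) on the minus strand, with no other annotated gene overlapping it. One site lay near the 3′ end of the span, with summits 4679, 4705 and 4696 bp from the 5′ end in replicates 1, 2 and 3, or 96.2%, 96.8% and 96.6% of the span. At the other site the summits lay 3829, 3831 and 3847 bp from the 5′ end. The summits of the first site fell within 26 bp of each other and those of the second within 18 bp, and the sites were 850, 874 and 849 bp apart. Peaks of all 3 lists covered 209 bp at the first site (45687533 to 45687741) and 202 bp at the second (45688371 to 45688572). Exon positions were not used here, so it is not stated whether either site is exonic.

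**Figure D1:**
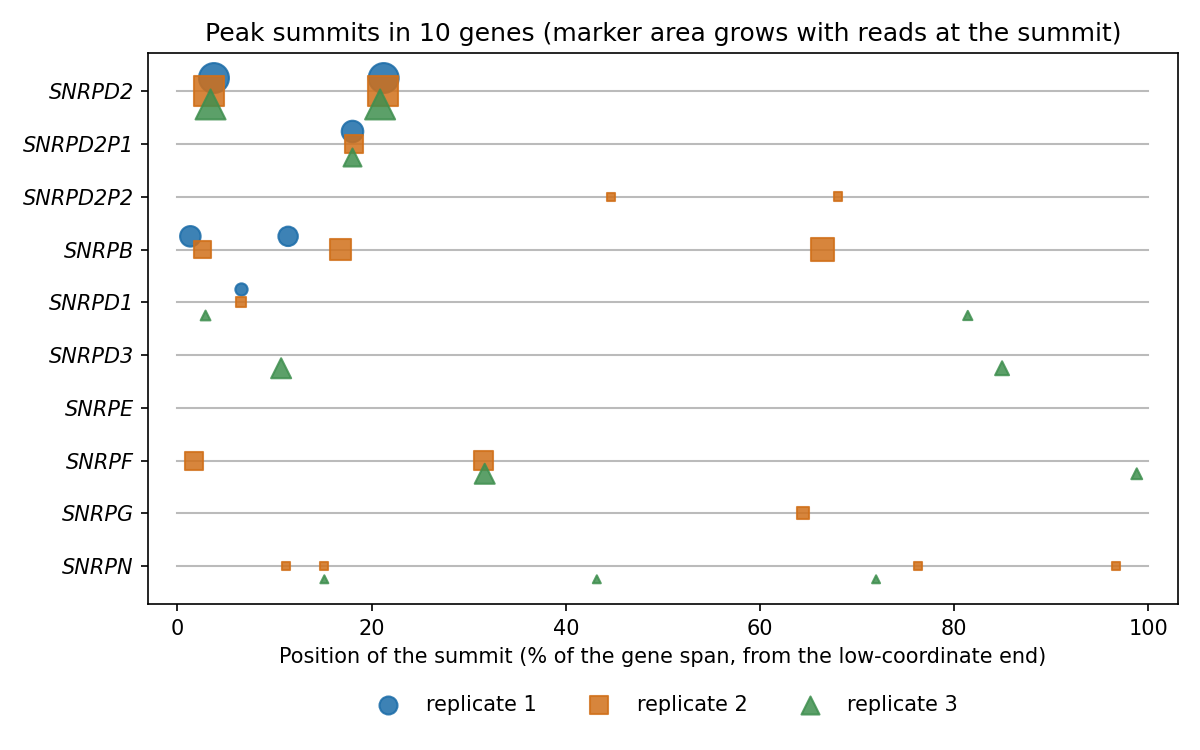
Each marker is a peak summit, placed along the gene span in percent from the low-coordinate end, for the 10 genes and 3 replicates; marker area grows with the reads at the summit. SNRPD2 is on the minus strand, so its 3′ end is on the left, and its sites near 3% and 21% of the span recur in all 3 replicates, while SNRPE has no marker.

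The start of SNRPD2 had no peak in any list. RefSeq gives 3 start windows for this gene (250 bases before to 50 after a start, GRCh38.p14), and the nearest peak edge to any of them was 3332, 3327 and 3331 bp away in replicates 1, 2 and 3. Of all 35116 start windows, 4.5%, 10.2% and 48.6% were overlapped by a peak in the 3 lists. The share of replicate 3 includes overlaps by peaks wider than 1000 bp, which were 49284 of its 65097 peaks. The share without wide peaks was not computed, so the 48.6% is a poor background for SNRPD2. The SNRPD2 window that reaches farthest 5′ (chr19:45692267-45692566, minus strand) is shown because it marks the end of the gene opposite to its peaks, with the 50 bases after the start in capitals and the 250 before it in lower case.
SNRPD2: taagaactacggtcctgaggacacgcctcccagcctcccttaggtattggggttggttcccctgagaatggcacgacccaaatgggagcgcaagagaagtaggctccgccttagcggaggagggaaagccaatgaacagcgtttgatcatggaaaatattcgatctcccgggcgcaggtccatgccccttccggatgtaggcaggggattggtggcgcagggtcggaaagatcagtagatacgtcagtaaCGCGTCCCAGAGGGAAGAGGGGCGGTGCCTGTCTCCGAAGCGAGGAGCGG
No motif was searched in it.

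The background at SNRPD2 was also high, above that of 99.96% and 99.997% of the peaks of replicate 1 at the 3′ and the second site, 99.84% and 99.95% in replicate 2, and 99.96% at both in replicate 3. At the 3′ site 78, 80 and 78 reads stood over a background of 35.0, 27.99 and 19.7 reads in replicates 1, 2 and 3, or 2.23, 2.86 and 3.96 times it. At the second site the same numbers of reads stood over 45.0, 40.6 and 19.7 reads, or 1.73, 1.97 and 3.96 times. The deposited folds were 2.17, 2.79 and 3.46 at the 3′ site and 1.71, 1.95 and 3.46 at the second. They are the authors' values, include a pseudocount on a scale that differs between lists, and are compared only within a list.

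The standing of SNRPD2 therefore depended on the measure. In replicate 1, both peaks of the list that held 78 reads were those of SNRPD2. In replicate 2, 6 peaks held 80 reads, 2 in SNRPD2 and 1 each in RNVU1-31, SNORD3C, RNA18SP5 and RN7SKP71. In replicate 3, 4 peaks held 78 reads, 2 in SNRPD2, 1 in RNVU1-31 (a U1 snRNA variant gene) and 1 in RN7SKP203 (a 7SK copy). Of 20037 protein-coding genes, 0.00499%, 0.00998% and 0.00499% had a summit at the highest number: SNRPD2 in each list, and in replicate 2 also HECTD4, whose summit lies in RN7SKP71 inside it. By −log10 p the 3′ site had 6.14, 15.5 and 6.46, which put SNRPD2 at rank 1136 of 9069, 38 of 15377 and 723 of 13125 protein-coding genes with a summit. By the deposited fold this peak lay above 17.2%, 84.2% and 96.1% of its list. The second site lay above 60.5%, 98.9% and 98.3% of its list by −log10 p, and above 0.219%, 72.9% and 96.1% by fold. The fold, −log10 p and q-value all rest on the reads at the summit, which may be capped at SNRPD2. These ranks are therefore uncertain, and whether a cap changed them was not tested.

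The q-values separated the replicates. At the 3′ site the −log10 q was 1.25, 9.15 and 1.56, so the peak of replicate 1 missed a q-value of 0.05. The second site had 0, 2.88 and 1.56 and also missed it in replicate 1. These q-values carry the same uncertainty from the possible cap. A peak under this q-value was present in 5.21%, 18.3% and 4.01% of protein-coding genes in the 3 lists. Of all protein-coding genes 0.679% passed in every list, and 0 of the 8 ring genes did.

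SNRPD2P1, a copy annotated as a pseudogene, had 1 peak in each list at the same base to within 1 bp. It lies on chromosome 10 from 89978662 to 89979168 (507 bp) with no other annotated gene over it, and its strand was not in the tables used. The summits lay 91, 92 and 91 bp from the low-coordinate end, and all 3 lists covered 252 bp (89978708 to 89978959). The peak was 378 bp wide in replicate 1, 252 bp in replicate 2 and 40238 bp in replicate 3, where it reached beyond both ends of the copy. The summit position was nevertheless the same.

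The copy had fewer reads than SNRPD2 and almost no background. It held 38 reads in replicate 1, 28 in replicate 2 and 25 in replicate 3, where the background was 0.0373, 0.0361 and 0.0316 reads. By both −log10 p (60.4 and 72.8) and deposited fold (23.3 and 27.99) it was the strongest peak of replicates 1 and 2. In replicate 3 it was at rank 45 by −log10 p (18.4), shared with other peaks, and at rank 125 by fold (7.28). By reads at the summit the copy lay above 99.4%, 99.3% and 98.7% of its list, so by that measure it was not the strongest peak. Its background in replicates 2 and 3 was close to the 0.0334 and 0.0316 reads at the SNRPN peaks of 1 read. The standing of the copy therefore also depended on the measure. Its −log10 q was 50.9, 63.3 and 11.97, and it was the member that passed a q-value of 0.05 in every list, as 0.125% of 16845 pseudogenes did. At least 10 reads in every list were found in 0.588% of pseudogenes, and a segment covered by all lists in 1.26%. Reads of SNRPD2 and its copies can be assigned to one another where their sequences are alike, and how such reads were handled is not given in the sources used here, so the split between these loci is uncertain.

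**Figure D2:**
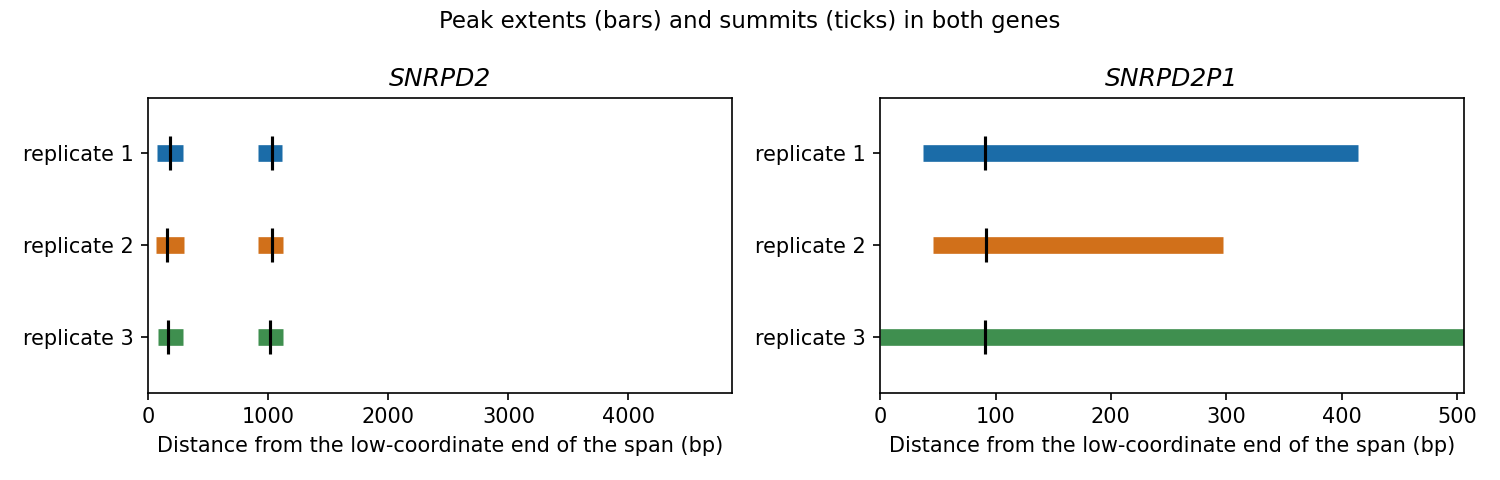
Bars show each peak and ticks its summit, in bp from the low-coordinate end of the span, for SNRPD2 (left, 4863 bp) and SNRPD2P1 (right, 507 bp); bars are cut at the ends of the span. The summits of the 3 replicates line up at 2 sites of SNRPD2 and at 1 base, to within 1 bp, of SNRPD2P1, where the bar of replicate 3 fills the span.

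SNRPD2P2, a transcribed pseudogene on chromosome 1 from 231475762 to 231476525 (764 bp), had no summit in replicates 1 and 3. Replicate 2 had 2, with 1 read (341 bp from the low-coordinate end) and 2 reads (519 bp), over a background of 0.0334 reads. The peak with 1 read has a −log10 p of 3.26, a value that 57982 peaks of that list share. A wide peak of replicate 3 with its summit elsewhere covered the whole of this copy.

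The remaining 7 ring genes had 3, 11 and 9 peaks in replicates 1, 2 and 3, and no site at which all 3 lists had a peak. Of the 8 ring genes 3, 6 and 5 (37.5%, 75% and 62.5%) had a summit in replicates 1, 2 and 3. Among all protein-coding genes 45.3%, 76.7% and 65.5% did, so the share of ring genes with a summit was near the background in each list. A summit in every list was present in 2 of 8, SNRPD2 and SNRPD1, against 38.5% of protein-coding genes. A segment of at least 20 bp covered by all 3 lists was present in 1 of 8, SNRPD2, against 10.8%. At least 10 reads in every list was reached by 1 of 8, again SNRPD2, against 7.33%. More than 1 summit in every list was found in 1 of 8, SNRPD2 as well, against 22.8%. These shares are not adjusted for length: the median span was 12379 bp for the 7 partners and 24115 bp for all protein-coding genes.

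SNRPB encodes SmB and its splice form SmB′, which pair with SmD3. It lies on chromosome 20 from 2461642 to 2470789, minus strand, and had 2, 3 and 0 summits. Replicate 1 had 34 reads over a background of 18.3 near the 3′ end (9025 bp from the 5′ end) and 30 over 15.01 at 8104 bp. Replicate 2 had 21 reads over 10.8 at 8908 bp, 36 over 17.2 at 7608 bp, and 45 over 10.8 at 3067 bp. The last of these had a −log10 p of 14.7 and a −log10 q of 8.45, close to the 15.5 and 9.15 of the SNRPD2 3′ site in the same list, and no counterpart in replicates 1 and 3. The peaks nearest the 3′ end in replicates 1 and 2 overlapped by 94 bp with summits 117 bp apart. The snoRNA gene SNORD119 lies in SNRPB. Between it and the replicate 2 peak at 7608 bp were 33 bases, with the peak on the side of the SNRPB 5′ end.

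SNRPD1 encodes SmD1, the direct partner of SmD2 in the ring. It lies on chromosome 18 from 21612314 to 21633520, and its strand was not in the tables used. Replicates 1 and 2 had their summit at the same base, 1390 bp from the low-coordinate end, with 9 reads over 0.716 and 6 over 0.903. Replicate 3 had none there. It had 4 reads over 0.415 at 615 bp and 3 reads over 0.0316 at 17262 bp, the latter in a peak 5955 bp wide. SNRPD1 therefore had a summit in each list but at different sites.

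SNRPD3, which encodes SmD3, had no summit in replicates 1 and 2. On chromosome 22 from 24555650 to 24574971, plus strand, replicate 3 had 32 reads over a background of 11.8 at 2064 bp from the 5′ end, and 13 over 1.23 at 16410 bp. Neither had a −log10 q above 0, and neither lies in the part that GUCD1 overlaps. SNRPE, which encodes SmE (chromosome 1, 203861599 to 203871152), was the ring gene with no summit in any list. No peak overlapped it, and the nearest was 7754, 9744 and 3882 bp away in replicates 1, 2 and 3.

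SNRPF, which encodes SmF, had 0, 2 and 2 summits. It lies on chromosome 12 from 95858952 to 95866140, plus strand. At 1 site, 2268 and 2275 bp from the 5′ end in replicates 2 and 3, the lists had 27 reads over 15.3 and 32 over 11.8, with a −log10 q of 0 in both. Replicate 2 also had a peak close to the start, with its summit at 122 bp, 25 reads over 8.13 and a −log10 q of 1.83. Replicate 3 had 6 reads over 0.154 near the 3′ end, at 7102 bp. The start peak of replicate 2 began 59 bp beyond the annotated start window (chr12:95858702-95859001, plus strand). That window is shown because, of the ring genes with a start window, no other had a peak of at most 1000 bp so near it, with the 50 bases after the start in capitals.
SNRPF: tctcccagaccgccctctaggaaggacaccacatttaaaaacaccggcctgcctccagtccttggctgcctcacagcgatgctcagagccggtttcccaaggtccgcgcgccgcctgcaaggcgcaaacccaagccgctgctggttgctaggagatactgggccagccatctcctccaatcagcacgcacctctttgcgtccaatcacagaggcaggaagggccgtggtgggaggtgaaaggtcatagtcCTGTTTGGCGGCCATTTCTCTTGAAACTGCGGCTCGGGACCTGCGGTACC
The first peak of replicate 3 began 2147 bp beyond it.

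SNRPG had 1 summit over all lists, and every summit in SNRPN rested on 1 read. SNRPG, which encodes SmG (chromosome 2, 70281362 to 70293740, minus strand), had its summit in replicate 2, with 10 reads over 2.71 at 4404 bp from the 5′ end. SNRPN lies on chromosome 15 from 24823637 to 24978723 and, at 155087 bp, is the longest of the 10 genes. It had 0, 4 and 3 summits, each with 1 read. The 3 peaks of replicate 3 were 25936, 33814 and 51108 bp wide and 72.5% of the span was covered in that list. The whole of SNRPN lies within the long noncoding RNA gene SNHG14, and the last summit of replicate 2 also lies in SNURF, so none of these reads can be given to SNRPN alone. All of its start windows were overlapped in replicate 3, by the wide peaks, and none in replicates 1 and 2.

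**Figure D3:**
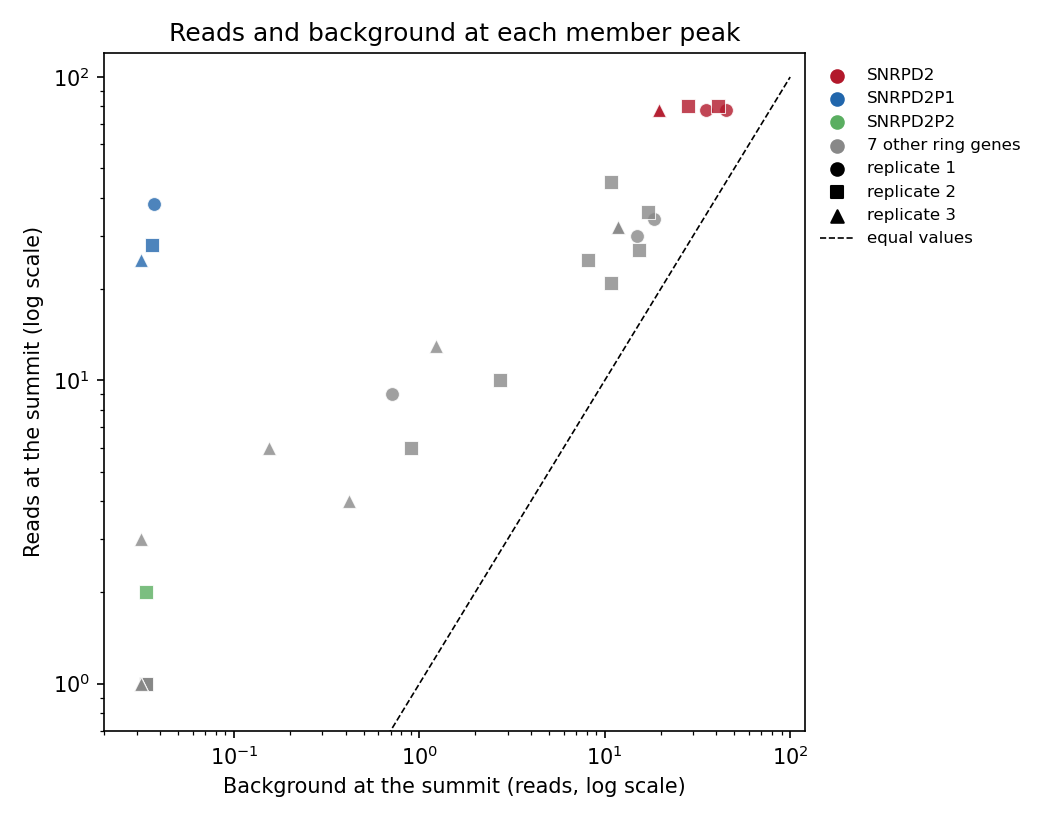
Each point is 1 member peak, with the caller's background at the summit on the horizontal axis and the reads at the summit on the vertical axis, both in reads on log scales; colour gives the gene group and shape the replicate, and points with equal values overlap. The SNRPD2 points sit at 78 to 80 reads with a background of 19.7 to 45.0, the SNRPD2P1 points at 25 to 38 reads with a background near 0.03, and the other ring genes at 1 to 45 reads.

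SNRPD2 was compared with its ring partners within each list. In peaks per kb SNRPD2 had 0.411 in each list, while the median of the 7 partners was 0 in replicate 1, 0.0472 in replicate 2 and 0.0193 in replicate 3. The difference was 0.389 ± 0.0237 peaks per kb (SD, n = 3) and above 0 in 3 of 3 replicates. Over all protein-coding genes the median was 0, 0.106 and 0.0315 peaks per kb, and 97.9%, 91.0% and 98.2% of them lay below SNRPD2, a short gene in which few peaks give a high density. The strongest SNRPD2 peak by −log10 p lay above 94.8%, 99.96% and 98.3% of its list. The median partner lay at 0, 86.2% and 0.300%, counting a gene without a summit as 0, and the median protein-coding gene at 0, 80.2% and 0.300%. This difference was 68.9 ± 47.7 percentage points (SD, n = 3), also above 0 in 3 of 3 replicates, and was smallest in replicate 2, at 13.8 points. For both differences the exact two-sided sign-flip permutation test gave p = 0.25 (0.25 after Benjamini-Hochberg adjustment over the 2 comparisons), the smallest that 3 replicates allow, so a p under 0.05 could not be reached. Ranked by deposited fold the second difference was 17.2, -1.87 and 96.1 points by replicate, below 0 in replicate 2. With a q-value under 0.05 it was 0, 98.95 and 8.03 points, since neither SNRPD2 nor the median partner had such a peak in replicate 1. Without SNRPN, whose 1-read peak set the partner median of replicate 3, the difference there was 60.3 points against 97.99. The SNRPD2 percentiles in all these comparisons rest on reads that may be capped.

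Among the partners the order of the strongest peaks changed from list to list. In replicate 1 SNRPD1 (89.7%) was above SNRPB (14.7%), and the other 5 had no summit. In replicate 2 SNRPB (99.95%) was next to SNRPD2 (99.96%), followed by SNRPF (97.5%), SNRPD1 (89.2%), SNRPG (86.2%) and SNRPN (43.9%). In replicate 3 the order was SNRPD3 (86.3%), SNRPF (82.4%), SNRPD1 (76.01%) and SNRPN (0.300%). The SNRPN values rest on peaks of 1 read that also lie in SNHG14. Their −log10 p is shared by 57982 peaks of replicate 2 and 47449 of replicate 3, so its place is not interpreted. By −log10 p SNRPD2 was the highest ring gene in each list. By deposited fold it was not: SNRPD1 (4.48) was above SNRPD2 (2.17) in replicate 1, and SNRPB (3.89), SNRPD1 (3.68), SNRPG (2.97) and SNRPF (2.85) were above it (2.79) in replicate 2. The SNRPD2 folds rest on reads that may be capped, so this order is uncertain.

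**Figure D4:**
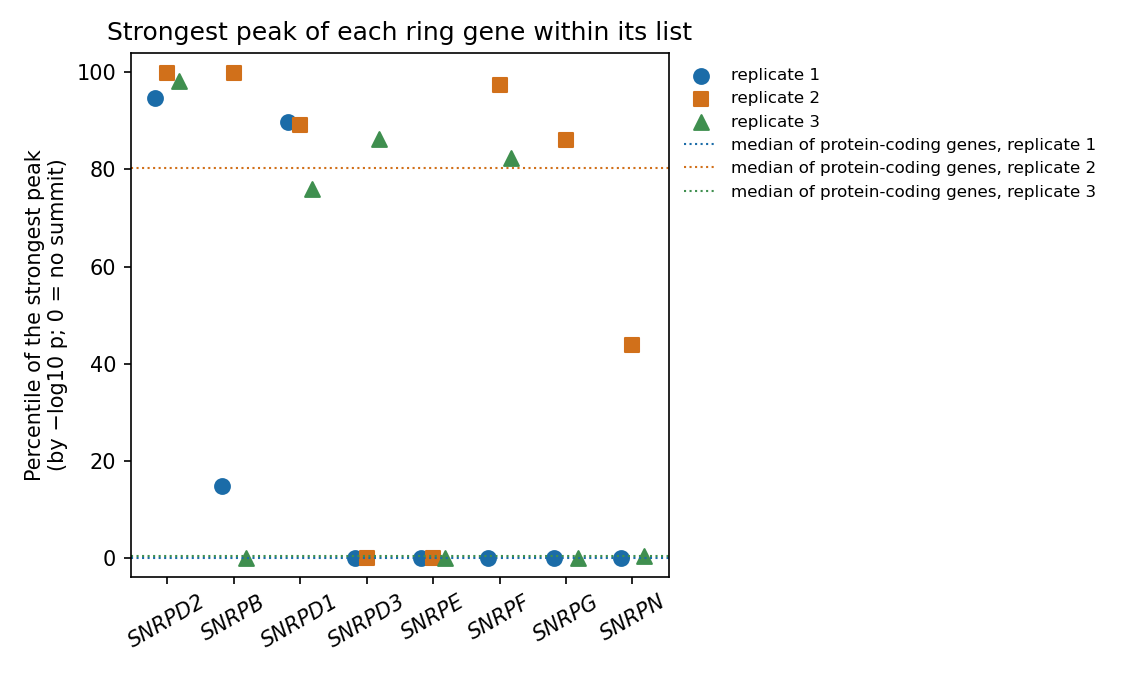
Percentile of the strongest peak of each of the 8 ring genes within its list, ranked by −log10 p, with 0 for a gene without a summit; shapes and colours give the replicate and dotted lines the median over all 20037 protein-coding genes. SNRPD2 lies between 94.8% and 99.96% in all replicates, while each of the others falls below 80% in at least 1 replicate.

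Unlike SNRPD2P1, none of the annotated copies of the other ring genes had a summit in every list. Of 37 such pseudogenes, 0, 3 and 2 had a summit in replicates 1, 2 and 3, and 0 had one in every list. Among all pseudogenes 5.19%, 16.4% and 12.8% had a summit, and 2.62% had one in every list, so 0 of 37 is near that share. The median span was 395 bp for the 37 copies and 725 bp for all pseudogenes, and a shorter span can hold fewer summits. The strongest was that of SNRPGP15, with 19 reads in replicate 3, but it lies within GIPC1. SNRPEP1, within CCNJL, had 2 reads in replicate 2, SNRPEP4 7 reads in replicate 3, SNRPGP5, within OPTN, 1 read in replicate 2 and SNRPGP10, within KLHDC8A, 10 reads in replicate 2.

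The LSm genes encode the related ring around U6 snRNA, and LSM10 and LSM11 take the places of SmD1 and SmD2 on U7 snRNA. Of 10 LSm genes 3, 7 and 6 had a summit in replicates 1, 2 and 3, near the 45.3%, 76.7% and 65.5% of protein-coding genes. LSM1, of the cytoplasmic ring that acts in mRNA decay, was the 1 of these 10 with at least 10 reads in every list (7.33% of protein-coding genes), with highest numbers of 16, 13 and 14. The highest number of reads in any LSm gene was 28, 23 and 28, against 34, 45 and 32 among the 7 Sm partners and 78, 80 and 78, the possible ceiling, in SNRPD2.

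The protein-coding genes nearest SNRPD2 by the percentile of the strongest peak were DPYSL2, HTT and DYRK1A, at Euclidean distances of 0.368, 0.398 and 0.475 percentage points over 3 replicates. They were unlike it in reads and length: DPYSL2 had at most 9, 13 and 13 reads at a summit in a span of 144145 bp, and 4, 12 and 7 summits. HTT had at most 14, 14 and 12 reads and DYRK1A 9, 10 and 9. The SNRPD2 percentiles rest on reads that may be capped, so which genes are nearest is uncertain.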

How the data were processed

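RIP-seq peak lists of 3 SNRPD2 overexpression samples of HEK293T cells were analysed, grouped per the labels' titles. The submitters' processing notes name the tools MACS2 2.2.9.1, STAR 2.7.10b and cutadapt 4.2 and the build GRCh38. Options, the library used as background, and the handling of duplicate or multiply mapped reads are not given in the sources used. The deposited score is the whole part of 10 times the deposited −log10 p; the deposited −log10 q-value and the deposited fold (a ratio with a pseudocount) are the authors' own, 1 list per sample. Starts, ends and summits were converted to 1-based positions.

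Reads and background at a summit were solved from fold and −log10 p (Poisson tail, SciPy 1.17.1), accepting numbers within 0.0005 of whole and taking the lowest where several fitted (1.60%, 0.0342% and 0.0369% of peaks). All peaks were solved, and simulated peaks with known reads were recovered in 99.9%, 99.8% and 99.9%. The simulated peaks were made with the same formula, so their recovery checks the solving and not whether the formula holds for the deposited values. The lists carry no library totals, so sequencing depth is unknown beyond these reads. Gene spans and start windows came from RefSeq tables of GRCh38.p14; exons were not used. A strongest peak is that with the highest −log10 p; the highest number of reads in a gene can come from another of its peaks.

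All 10 members are named. Other genes were named by a written rule: genes sharing a member's summit, the 5 strongest ring pseudogene copies and those with a summit in all lists, the 3 protein-coding genes nearest SNRPD2, and LSm and assembly genes with at least 10 reads in all lists. Other genes with a summit at the highest number of reads, the genes overlapping members, GEMIN6, SMN1 and SMN2 were named after their values were seen. Members and lists were chosen with earlier results of these data known.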

Additional observations from a re-analysis of the deposited data

How the results depend on the processing

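The mean SNRPD2 differences from its partners kept their direction under all alternatives tried, 9 for peaks per kb (0.274 to 0.411) and 11 for the percentile (35.7 to 96.4 points). Single replicates did not always: with a q-value under 0.05 both differences were 0 in replicate 1, and by deposited fold the percentile difference of replicate 2 was -1.87. Several of the alternatives could not have reversed a mean. Both differences were above 0 in 3 of 3 replicates, so leaving out a replicate could not. The limits of 10 reads and of 1000 bp kept both SNRPD2 peaks in each list, so the difference in peaks per kb could not fall. With a q-value under 0.05 the mean number of member peaks was 3 per replicate against 11.3, 1 member against 3 had a summit in every list (SNRPD2P1), and 1 segment against 3 remained. With at least 10 reads the mean was 6.67 peaks. Leaving out each replicate gave 9 to 14 peaks, 3 to 5 members with a summit in every list left, and 3 to 9 segments. Without replicate 1, SNRPF and SNRPN joined SNRPD2, SNRPD2P1 and SNRPD1, and segments rose to 9. The segments added in SNRPN and SNRPD2P2 were replicate 2 peaks of 1 or 2 reads under wide peaks of replicate 3. Without replicate 3, SNRPB joined SNRPD2, SNRPD2P1 and SNRPD1, with 5 segments. With peaks of at most 1000 bp SNRPD2P1 lost its peak in replicate 3, which left 2 segments. By construction the limits on q-value, reads or width keep fewer peaks, and leaving out a replicate requires fewer lists. No paired analysis was possible because the control samples, which share replicate numbers with the overexpression samples, were not analysed here. Precision is limited by the reads at a summit, and values with 1 or 2 reads have no order.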

Other observations

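Of 13 genes that assemble the Sm ring, 8 had a summit in every list (38.5% of protein-coding genes) and 5 had at least 10 reads in every list (7.33%), while 1 of 8 ring genes did; the difference between the lists was not tested, and their median span was 21092 bp against 12379 bp for the 7 ring partners. CLNS1A, which encodes pICln, the chaperone that holds Sm proteins before assembly, had at most 30, 27 and 28 reads at a summit in replicates 1, 2 and 3. PRMT5, the methyltransferase that modifies Sm tails, had 39, 37 and 27. GEMIN4 and GEMIN5, of the SMN complex, had 19, 22 and 21 and 17, 16 and 15, and STRAP, another subunit, 22, 32 and 24. GEMIN6 had no summit in any list. SMN1 and SMN2 are near-identical copies, so their values (3, 6 and 8 reads in SMN1; none, 5 and 4 in SMN2) cannot be divided between them.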
